A study of Mus musculus with 4 samples.

Results

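The 10 messenger RNAs described here are made inside the mitochondrion from its own genome: mt-Nd1, mt-Nd2, mt-Nd3, mt-Nd4, mt-Nd5, mt-Cytb, mt-Co1, mt-Co2, mt-Co3 and mt-Atp6. They were chosen by name from the deposited count tables, where they are 10 of 38457 mouse rows and 10 of the 13 protein-coding genes on the mitochondrial chromosome. All 10 were read in every library and passed the filter on low counts in every test. The study used single cells dissociated from mouse pancreatic islets, captured in droplets on the inDrop platform and amplified by CEL-Seq, a linear method that reads the 3′ ends of polyadenylated RNA. It has 4 libraries, 2 labelled WT and 2 labelled Sin3A mutant, whose titles end in _2426 or _3165, and they are named here by those titles. Sin3A is a scaffold protein of transcriptional co-repressor complexes. The labels give pancreatic islets and the genotype for each library; the allele, any Cre driver, the age and the number of mice in a library appear in no source used here, and the design text counts 2 biological replicates per genotype.

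Mitochondrial messenger RNAs encode the core subunits of the respiratory chain and of the ATP synthase, and the other subunits of these complexes come from nuclear genes. Both strands of the mitochondrial genome are transcribed as long precursors, which are cut mostly where transfer RNAs lie between the coding genes and are then polyadenylated. In beta cells, mitochondrial ATP production couples the uptake of glucose to the release of insulin, so the respiratory chain is part of how these cells sense glucose.

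The libraries held 1302 (WT1_2426), 1323 (Sin3A mutant1_2426), 1878 (WT1_3165) and 2445 (Sin3A mutant1_3165) barcodes, and 6554 of 6948 were kept, with median counts per kept cell of 9898, 7584.5, 5303.5 and 4443.5. No upper limit was set on a cell's mitochondrial share. Between 12 and 42 barcodes were shared by any pair of libraries, at most 2.24% of the smaller one. Sin3a, the targeted gene, was at 25.9, 43.4, 40.7 and 18.4 CPM (counts of a gene per 1000000 counts of the sum) in the beta-like cells of WT1_2426, Sin3A mutant1_2426, WT1_3165 and Sin3A mutant1_3165, so the library labelled Sin3A mutant1_2426 was above its WT counterpart and went against its label. Whether the counted 3′ tags lie in the altered part of Sin3a is not known here, and every mutant value below is that of a library so labelled. Counting error did not cover the gap between libraries of one label (chi-square over its degrees of freedom 87.7 for WT and 189 for mutant). Clustering without the mitochondrial rows gave classes named from marker genes, among them 2221 beta-like, 983 alpha-like and 498 delta-like cells, which hold the hormone genes of an islet. The beta-like cells fell into 4 clusters, each mostly from 1 library.

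The annotated 3′ ends of the messenger RNAs are shown because a 3′ method counts RNA near its end. Whether the RNAs end where the annotation does was not tested. In 3 of the 10, mt-Co3, mt-Nd4 and mt-Cytb, the encoded reading frame stops at a lone T, and the stop codon is completed only by the added A tail; the other 7 end in a complete stop codon. The last 30 bases of these 3, and of mt-Co2 and mt-Nd5, which had the highest and the lowest level per length in beta-like cells, are given 5′ to 3′ from the GRCm38 transcripts, with the encoded stop, whole or partial, in capitals.
mt-Co3 (chrM:9361-9390, plus strand): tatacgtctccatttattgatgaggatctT
mt-Nd4 (chrM:11515-11544, plus strand): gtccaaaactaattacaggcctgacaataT
mt-Cytb (chrM:15259-15288, plus strand): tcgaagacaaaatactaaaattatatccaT
mt-Co2 (chrM:7667-7696, plus strand): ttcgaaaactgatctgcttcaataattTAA
mt-Nd5 (chrM:13536-13565, plus strand): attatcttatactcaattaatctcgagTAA
All 10 lie on the plus strand of the annotation. The end of mt-Nd5 overlaps mt-Nd6 on the minus strand (13552 to 13581 is the end of mt-Nd6). Since the strand used in counting is not given, reads there cannot be told apart. The next coding gene on the plus strand, mt-Cytb, starts at 14145. Any mt-Nd5 RNA past 13565 would lie outside the annotated gene.

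Coding regions of the mouse mitochondrial genome overlap in the bicistronic messages of mt-Atp8 with mt-Atp6 and of mt-Nd4l with mt-Nd4, each of which is carried on 1 RNA. The shared 43 and 7 bases are shown in capitals, with 20 bases on either side.
mt-Atp8/mt-Atp6 (chrM:7907-7989): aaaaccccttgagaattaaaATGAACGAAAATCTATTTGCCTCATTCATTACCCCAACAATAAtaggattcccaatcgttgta
mt-Nd4l/mt-Nd4 (chrM:10147-10193): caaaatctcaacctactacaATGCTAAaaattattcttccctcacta
The upstream genes of these messages had few counts beside the downstream ones. Over all kept cells mt-Atp8 had between 0.539% and 1.61% of the counts of mt-Atp6, and mt-Nd4l between 2.14% and 5.68% of those of mt-Nd4. The rows mt-Atp6 and mt-Nd4, the genes on the 3′ side, thus hold most of what was counted of each pair. Where the RNAs that carry both frames end was not tested. mt-Nd6, the sole coding gene on the other strand, had 46 to 80 counts per library, at most 0.615% of the counts of mt-Nd5.

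Several of the 10 also have near-identical copies in the nuclear genome, on chromosome 1 of GRCm38. Gm10925 (chr1:24613974-24614651, minus strand) matches mt-Atp6, Gm28437 (chr1:24613189-24613971) matches mt-Co3 and Gm28661 (chr1:24614885-24615565) matches mt-Co2, each with no mismatch over its length. Gm28438 matches mt-Nd3 with 1 mismatch, Gm28439 matches 876 bases of mt-Nd4 with none, and Gm29216 matches 492 bases of mt-Co1 with 6. The last 60 bases of mt-Co1 are the same in Gm29216 and are shown to make the point that such reads have no letter that assigns them.
mt-Co1 (chrM:6813-6872): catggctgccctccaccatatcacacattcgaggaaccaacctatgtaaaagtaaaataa
Gm29216 (within chr1:24615706-24616197, minus strand): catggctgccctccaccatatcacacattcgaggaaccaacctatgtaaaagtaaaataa
Of the 6 copies listed, 0 have a row in the count tables, and no source used here tells how such reads were assigned. The counts of mt-Atp6, mt-Co1, mt-Co2, mt-Co3 and mt-Nd3, whose last 60 bases have no mismatch to the copy where the copy covers them, are uncertain in that respect. The copy of mt-Nd4 does not reach the last 60 bases of its annotated transcript, and mt-Nd1, mt-Nd2, mt-Nd5 and mt-Cytb have no copy on the list used.

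The question asked first was how much of a cell's counted RNA came from the 10. They made up 4.66% of all counts of kept cells in WT1_2426, 2.92% in Sin3A mutant1_2426, 5.80% in WT1_3165 and 7.90% in Sin3A mutant1_3165. In beta-like cells (475, 444, 577 and 725 cells) the share was 5.37%, 3.12%, 6.60% and 10.1%. The libraries labelled mutant were thus the lowest and the highest of the 4, and the WT libraries lay between them. Counting error was small against these gaps: the 95% Wilson interval of the share in beta-like cells was at most 0.0273 percentage points wide on either side. A share is relative, so fewer mitochondrial transcripts and more of other RNA cannot be told apart.

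**Figure D1:**
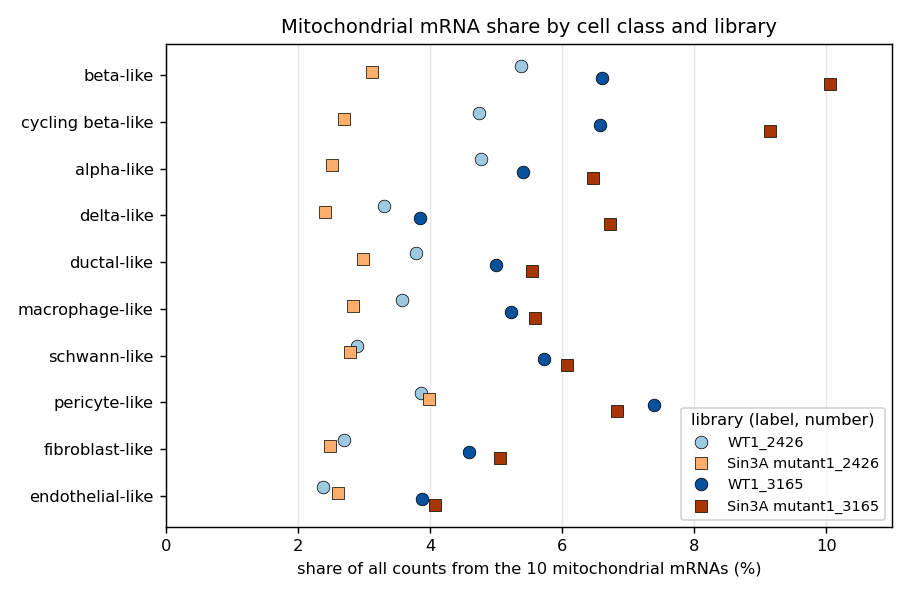
Share of all counts from the 10 mitochondrial messenger RNAs (horizontal axis, %) in 10 cell classes (vertical axis), with 1 point per library; circles are WT and squares mutant, pale for _2426 and dark for _3165. In beta-like cells the points run from 3.12% to 10.1% with both mutant libraries at the ends, while in endothelial-like cells they run from 2.37% to 4.07% and pair up by number.

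Hormone transcripts differed between the same libraries. Ins1 and Ins2 together took 15.1% of beta-like counts in WT1_2426, 28.7% in Sin3A mutant1_2426, 8.52% in WT1_3165 and 4.30% in Sin3A mutant1_3165, so the order of the insulin share was the reverse of the order of the mitochondrial share. With 6 hormone genes taken out of the total, the mitochondrial share of beta-like counts was 6.38%, 4.41%, 7.24% and 10.6%. The order of the libraries was the same on that total, and the ratio of the mutant to the WT library went from 0.580 to 0.691 within _2426 and from 1.53 to 1.46 within _3165.

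The direction of the difference between a mutant library and the WT library of its number was not the same in the 2 numbers. Among hormone-producing classes, the ratio within _2426 was 0.580 in beta-like, 0.568 in cycling beta-like, 0.526 in alpha-like and 0.731 in delta-like cells. Within _3165 it was 1.53, 1.39, 1.19 and 1.75 in the same order. The cycling beta-like value there rests on 24 cells of WT1_3165, while 81 further WT1_3165 cells with cell cycle genes at the top stayed in an unnamed cluster, with a share of 5.96% and an insulin share of 8.43%. All 4 of these classes were therefore lower in Sin3A mutant1_2426 and higher in Sin3A mutant1_3165 than in the WT library of the same number, and they were so outside the 6 hormone genes as well.

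Endothelial-like and pericyte-like cells, both of blood vessels, did not follow that division. In endothelial-like cells (62, 54, 87 and 146 cells) the share was 2.37%, 2.60%, 3.87% and 4.07% in the order WT1_2426, Sin3A mutant1_2426, WT1_3165 and Sin3A mutant1_3165. In pericyte-like cells it was 3.86%, 3.98%, 7.39% and 6.83%. The ratio of mutant to WT in these 2 classes was between 0.924 and 1.10 in both numbers, and both _3165 libraries were above both _2426 libraries, by 1.63-fold and 1.56-fold in endothelial-like and by 1.91-fold and 1.71-fold in pericyte-like cells for WT and mutant. Fibroblast-like cells gave 2.70%, 2.49%, 4.58% and 5.05%, with only 7 cells in Sin3A mutant1_2426. The fibroblast-like ratios of mutant to WT were 0.922 within _2426 and 1.10 within _3165, and they were 0.788 and 1.11 in ductal-like, 0.793 and 1.07 in macrophage-like and 0.962 and 1.06 in Schwann-like cells. These _2426 ratios rest on 7, 14, 8 and 13 cells of Sin3A mutant1_2426, in which insulin took 8.91%, 0.145%, 19.8% and 11.7% of counts. With the 6 hormone genes taken out, the ratios were 1.01 and 1.10 in fibroblast-like, 0.785 and 1.10 in ductal-like, 0.992 and 0.998 in macrophage-like and 1.12 and 1.03 in Schwann-like cells, so that of these 4 classes ductal-like cells alone were lower within _2426 and higher within _3165 on both totals. Whether genotype ratios differ between classes was not tested.

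Over libraries, a difference in share between the labels was not detectable. In beta-like cells it was 5.98% ± 0.867 (SD, n = 2) in WT and 6.59% ± 4.91 (n = 2) in mutant, a difference of 0.604 percentage points (exact permutation test, two-sided, p = 1.0, where 0.333 is the smallest p that 2 against 2 allows). Over all kept cells it was 5.23% ± 0.805 and 5.41% ± 3.52, a difference of 0.181 points (exact permutation test, p = 1.0). The 2 mutant libraries spanned the WT libraries in both cases. Without Sin3A mutant1_2426 the difference in beta-like cells was 4.08 points, and without Sin3A mutant1_3165 it was −2.87 points, and without WT1_2426 it was −0.0088 points, so that its direction rested on single libraries.

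The levels of the single messenger RNAs in beta-like cells are given in CPM, in the order WT1_2426, Sin3A mutant1_2426, WT1_3165 and Sin3A mutant1_3165. For complex I, which takes electrons from NADH, mt-Nd1 was at 4611, 2216, 6183 and 12221 CPM. mt-Nd4, another membrane subunit of the proton pump, was at 7391, 3984, 8833 and 14408 CPM. Both had their lowest and highest values in the libraries labelled mutant.

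mt-Nd2 was at 5192, 2618, 5057 and 10750.5 CPM and mt-Nd3 at 3627, 1345, 2111 and 3847 CPM. mt-Nd5 was the least counted of the 10, at 1041, 1046, 1367 and 1925 CPM. Unlike the other complex I subunits, mt-Nd5 was at nearly the same level in both _2426 libraries (log2 ratio of mutant to WT 0.0075), and only the _3165 libraries differed (0.49).

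mt-Cytb, the cytochrome b of complex III, was the most counted in _3165, at 7296, 5239.7, 11925 and 20048 CPM. Of the catalytic subunits of complex IV, the cytochrome c oxidase, mt-Co1 was at 6202, 4084, 8007 and 7973 CPM and mt-Co2 at 7597, 4334, 11799.7 and 16124 CPM. Within _3165 the mutant library was higher for mt-Cytb and mt-Co2, while mt-Co1 differed by a log2 ratio of only −0.0062.

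mt-Co3, the remaining complex IV subunit, was at 4089, 2596, 5323 and 5704 CPM, and mt-Atp6, the proton channel subunit of the ATP synthase, at 6669, 3689, 5368 and 7614 CPM. Within _2426, 9 of the 10 were lower in the mutant library, by log2 ratios from −1.43 (mt-Nd3) to −0.48 (mt-Cytb), mt-Nd5 being the exception. Within _3165, 9 were higher, from 0.10 (mt-Co3) to 1.09 (mt-Nd2), mt-Co1 being the exception. The 2 labels overlapped for all 10 messenger RNAs, because Sin3A mutant1_3165 was at or above WT1_2426 and Sin3A mutant1_2426 at or below WT1_3165 in each.

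**Figure D2:**
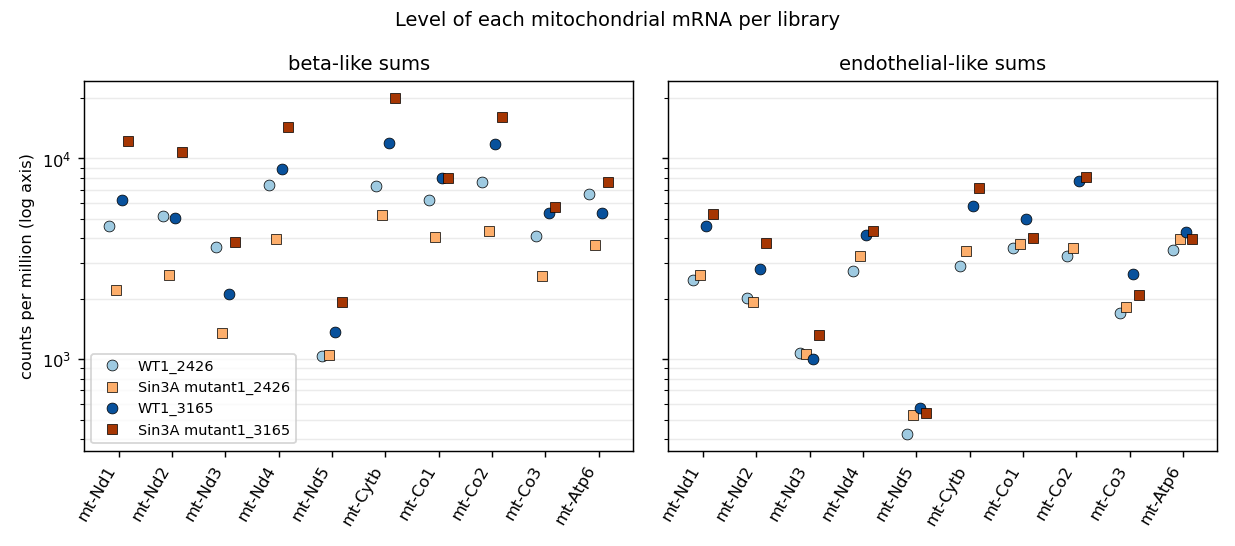
Level of each of the 10 messenger RNAs in CPM (vertical axis, logarithmic) in beta-like and endothelial-like cells, with 1 point per library. In beta-like cells the pale square (Sin3A mutant1_2426) is lowest for 9 of the 10 and the dark square (Sin3A mutant1_3165) is highest for 9, whereas in endothelial-like cells the squares lie close to the circles of the same shade.

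No gene passed the test of mutant against WT over libraries. In edgeR's quasi-likelihood test on beta-like sums, 0 of 15005 genes (percent called: 0) and 0 of the 10 had a Benjamini-Hochberg adjusted p under 0.05; 18 genes and none of the 10 had an unadjusted p under 0.05, and DESeq2 called 0. The fitted log2 differences of the 10 lay between −0.15 ± 0.74 (SE, mt-Co1) and 0.52 ± 0.83 (mt-Nd1), with a median of 0.22 against −0.0060 over all genes. On sums of all kept cells, 0 of 20053 genes were called (percent called: 0), 25 had an unadjusted p under 0.05, and DESeq2 called 0; the median of the 10 was 0.13. Each difference was smaller than its standard error, so at 2 libraries per label a difference of this size was not detectable.

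Per length, the levels can also be set side by side between genes. In beta-like cells, CPM per kilobase of transcript was 14567 ± 7484 (SD over 4 libraries) for mt-Co2, 9726 ± 5744 for mt-Cytb, 8569 ± 2498 for mt-Atp6 and 7852 ± 3462 for mt-Nd3. Then followed mt-Nd1 (6591 ± 4458), mt-Nd4 (6279.9 ± 3151), mt-Nd2 (5688 ± 3314), mt-Co3 (5648 ± 1789) and mt-Co1 (4249.9 ± 1202), and mt-Nd5 was last at 737 ± 228. The SDs of neighbours in this order overlapped except at the last step. Within libraries, mt-Co2 was above mt-Cytb, mt-Nd4 above mt-Nd2 and mt-Co3 above mt-Co1 in 4 of 4, while the order of the other neighbours before mt-Nd5 was not the same in all 4. mt-Nd5 in its highest library (1055 CPM per kilobase) was below each of the other 9 in all 4 libraries. A 3′ method counts ends, so dividing by length lowers the value of a long transcript such as mt-Nd5. Whether tags past the annotated end of mt-Nd5 were missed was not tested. Among complex IV subunits, mt-Co2 was above mt-Co1 and mt-Co3 in all 4 libraries, per length and in CPM alike.

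The make-up of the mitochondrial pool differed between libraries. As a percentage of the counts of the 10 over all kept cells, mt-Cytb made up 13.3%, 16.3%, 17.6% and 19.5% in WT1_2426, Sin3A mutant1_2426, WT1_3165 and Sin3A mutant1_3165. mt-Atp6 made up 12.5%, 12%, 8.36% and 7.72%, and mt-Nd1 8.97%, 7.61%, 10.2% and 12.6%. The 2 numbers were apart for all 3, with mt-Atp6 higher and mt-Cytb and mt-Nd1 lower in both _2426 libraries, and the 2 labels overlapped for all 3.

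Other members of the pool stood apart in a single library. mt-Co1 was 11.4%, 12.7%, 11.4% and 7.99% of the pool, and mt-Co3 7.52%, 8.06%, 8.07% and 5.65%, so that both were low in Sin3A mutant1_3165. mt-Nd5 was 1.93%, 3.35%, 2.03% and 1.86%, so that it was high in Sin3A mutant1_2426. The same libraries stood apart for mt-Co1 in beta-like (7.92%), alpha-like (7.34%), delta-like (8.0%) and endothelial-like (9.93%) cells of Sin3A mutant1_3165, each the lowest of its class.

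**Figure D3:**
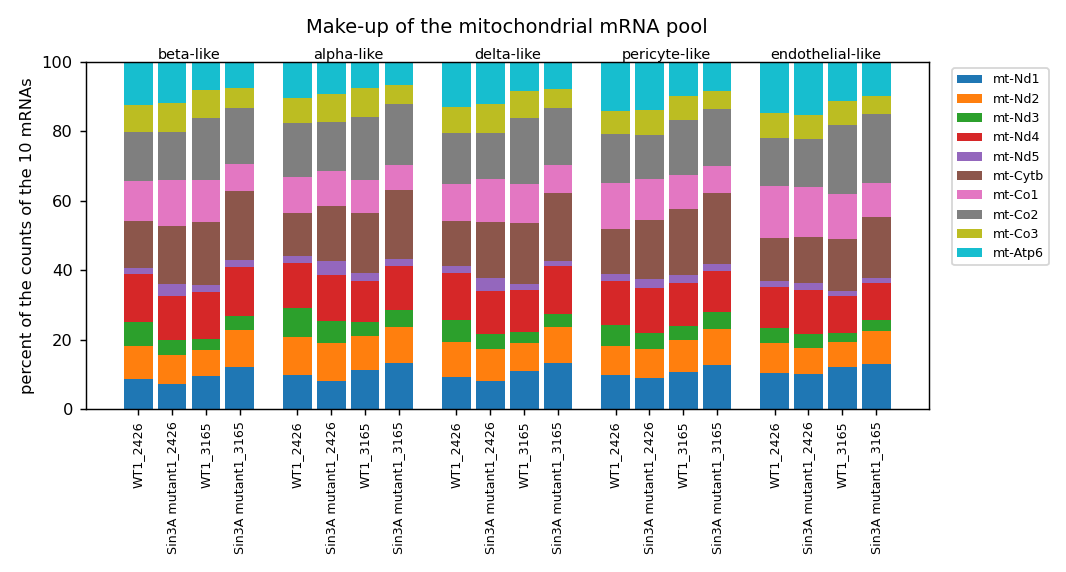
Percentage of the counts of the 10 messenger RNAs that each one takes (vertical axis; bars add to 100%) in 5 cell classes, with 1 bar per library. In all 5 classes the mt-Atp6 segment is smaller in the _3165 bars than in the _2426 bars, and mt-Cytb is largest in Sin3A mutant1_3165.

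The mitochondrial ribosomal RNAs, mt-Rnr1 and mt-Rnr2, come from the same precursor and form the mitochondrial ribosome. Per 100 counts of the 10 messenger RNAs, their sum was 6.80, 11.8, 2.82 and 1.54 in beta-like cells and 19.8, 19.5, 12.7 and 10.4 in endothelial-like cells, in the order WT1_2426, Sin3A mutant1_2426, WT1_3165 and Sin3A mutant1_3165. The ratio was lower in both _3165 libraries than in both _2426 libraries in either class, and higher in endothelial-like than in beta-like cells in all 4. In beta-like cells mt-Rnr2 was at 2137, 2386, 1255 and 928.5 CPM, so that its library order was the reverse of that of the summed share of the 10. That was not so for mt-Rnr1, at 1518, 1279, 604 and 618 CPM, and several of the 10 had other library orders one by one.

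The second question was how the 10 differ between cell classes of the same library. Alpha cells secrete glucagon; in alpha-like cells (137, 119, 412 and 315 cells) the share was 4.77%, 2.51%, 5.41% and 6.46%, which is between 0.642 and 0.888 of the share in beta-like cells of the same library. All 4 libraries had the lower share in alpha-like cells. Outside the 6 hormone genes the alpha-like ratio to beta-like cells was 0.858, 0.685, 0.938 and 0.731, also lower in all 4 but near 1 in WT1_3165. Delta cells secrete somatostatin; their ratio to beta-like cells was 0.614, 0.774, 0.583 and 0.668 in the order of the libraries. Endothelial-like cells were at 0.441, 0.835, 0.586 and 0.404 and fibroblast-like cells at 0.502, 0.799, 0.694 and 0.502, so that the gap was smallest in Sin3A mutant1_2426 for delta-like, endothelial-like and fibroblast-like cells. Outside the 6 hormone genes, delta-like cells were at 0.639, 0.735, 0.654 and 0.718 of beta-like cells, and endothelial-like cells at 0.373, 0.645, 0.540 and 0.386. Fibroblast-like cells were then at 0.425, 0.620, 0.635 and 0.479, so that in this class the smallest gap was that of WT1_3165. Pericyte-like cells were at 0.719, 1.28, 1.12 and 0.679, below beta-like cells in 2 libraries and above them in 2, and outside the hormone genes at 0.624, 0.992, 1.03 and 0.648, below them in 3.

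Insulin counts in classes other than beta-like cells differed between the same libraries. In endothelial-like cells Ins1 and Ins2 took 0.186% of counts in WT1_2426, 5.79% in Sin3A mutant1_2426, 0.116% in WT1_3165 and 0.0421% in Sin3A mutant1_3165, at median depths of 4030.0, 5863.5, 5321 and 3461 counts. In delta-like cells they took 8.82%, 14.4%, 0.124% and 1.69%, and in alpha-like cells 1.24%, 0.401%, 0.144% and 0.0486%. Whether the delta-like class of the _2426 libraries also holds insulin-producing cells or mixed barcodes was not tested. The insulin share of endothelial-like and delta-like cells was thus highest in Sin3A mutant1_2426, and the part of RNA from beta cells in the mitochondrial counts of other classes was not tested.

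In alpha-like against beta-like cells, with the library as a block, 5 of the 10 fell: mt-Nd4, mt-Cytb, mt-Co1, mt-Co3 and mt-Atp6. In that comparison 14.1% of 15282 genes were called lower at an adjusted p under 0.05 by edgeR's quasi-likelihood test. The largest fitted difference was that of mt-Co1, −0.76 ± 0.16 (log2 ± SE, adjusted p = 0.00256), from 6202, 4084, 8007 and 7973 CPM in beta-like to 4931, 2501, 5087 and 4746 CPM in alpha-like cells. mt-Co1 was lower in alpha-like cells in 4 of 4 libraries. mt-Nd3 lay at the other end with −0.12 ± 0.14 (adjusted p = 0.616), at 4049, 1615, 2232 and 3029.9 CPM in alpha-like cells, which was above beta-like cells in 3 libraries and below them in Sin3A mutant1_3165. The median of the 10 was −0.48, against 0.01 over all genes.

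Within the pool, the same contrast appears as a shift between members: mt-Nd1, mt-Nd3, mt-Nd5 and mt-Co2 made up more of the pool in alpha-like than in beta-like cells in 4 of 4 libraries, and mt-Cytb, mt-Co1 and mt-Atp6 less in 4 of 4. mt-Co1, for one, averaged 9.27% of the pool in alpha-like against 11.2% in beta-like cells, and mt-Nd3 5.94% against 4.52%. Leaving out Sin3A mutant1_2426 or Sin3A mutant1_3165 left 2 of the 10 called in alpha-like cells (mt-Co1 and mt-Atp6), and leaving out WT1_2426 left 3. The alpha-like class was held by different clusters in different libraries, cluster 6 for most cells of both _2426 libraries, 20 for WT1_3165 and 12 for Sin3A mutant1_3165.

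In delta-like cells all 10 fell, where 6.37% of 14719 genes were called lower. Insulin took 8.82% and 14.4% of the delta-like counts of WT1_2426 and Sin3A mutant1_2426, so these sums may not hold delta cells alone. The fitted differences had a narrow range, from −0.76 ± 0.13 (mt-Nd4, adjusted p = 0.00091) to −0.53 ± 0.13 (mt-Nd1, adjusted p = 0.0106), with a median of −0.72 against −0.03 over all genes. mt-Nd4 was at 4416, 2987, 4632 and 9208 CPM in delta-like cells, below beta-like cells of the same library in 4 of 4. Leaving out WT1_2426 or Sin3A mutant1_3165 left 8 of the 10 called, without mt-Nd1 and mt-Nd2.

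In endothelial-like cells all 10 fell as well, where 22.5% of 14188 genes were called lower, and the differences were larger and less alike. mt-Nd5 had −1.60 ± 0.22 (edgeR adjusted p = 9.46e-05), from 1041, 1046, 1367 and 1925 CPM in beta-like to 425, 527.5, 574 and 537 CPM in endothelial-like cells, with no overlap between the classes. mt-Atp6 had −0.77 ± 0.25 (adjusted p = 0.0247), with 3499.7, 3955, 4313 and 3953 CPM in endothelial-like cells. That was below beta-like cells in 3 libraries and above them in Sin3A mutant1_2426, which had 3689 CPM in beta-like cells. The median of the 10 was −1.30, against −0.23 over all genes. Leaving out Sin3A mutant1_3165 left 6 of the 10 called, without mt-Nd1, mt-Co1, mt-Co2 and mt-Atp6, and leaving out either WT library left 8.

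The pool of endothelial-like cells held more mt-Nd1, mt-Co1 and mt-Atp6 than that of beta-like cells in 4 of 4 libraries and less mt-Nd2, mt-Nd3, mt-Nd4, mt-Nd5, mt-Cytb and mt-Co3 in 4 of 4. mt-Co1 thus took less of the pool in alpha-like and more in endothelial-like cells than in beta-like cells. Its mean over libraries was 13.1% in endothelial-like cells. In fibroblast-like cells all 10 fell too, where 20.7% of 14118 genes were called lower, with a median of −0.99 against −0.24, from mt-Nd4 (−1.21 ± 0.28) to mt-Nd1 (−0.78 ± 0.28). Leaving out WT1_2426 or Sin3A mutant1_3165 left 3 of the 10 called, and leaving out Sin3A mutant1_2426 with its 7 cells left 10.

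**Figure D4:**
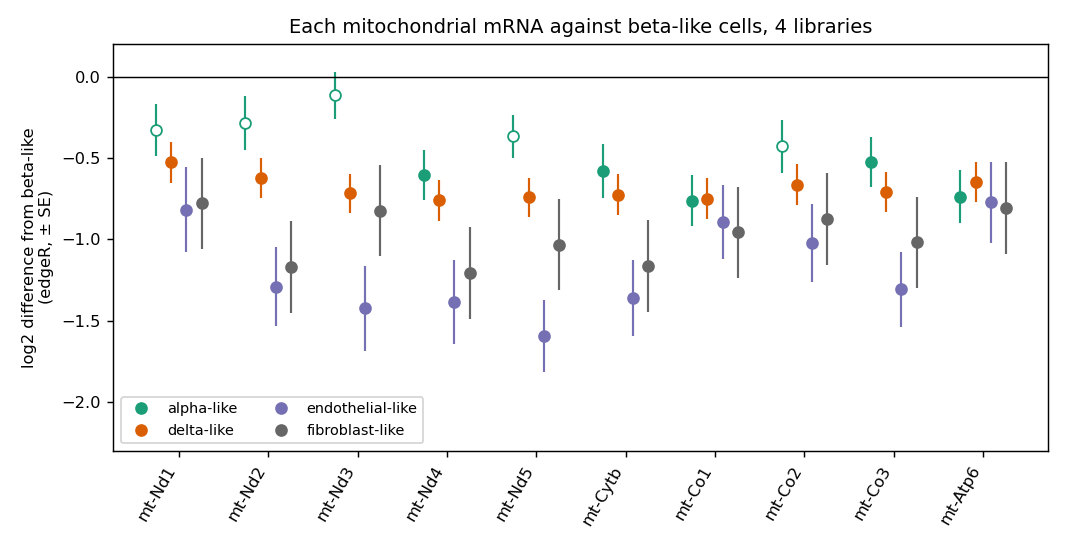
Fitted log2 difference from beta-like cells (vertical axis, points, with SE as bars) for each messenger RNA in alpha-like, delta-like, endothelial-like and fibroblast-like cells over 4 libraries; filled points have an adjusted p under 0.05 and open points do not. Delta-like values lie between −0.76 and −0.53, alpha-like values between −0.76 and −0.12 with 5 open points, and endothelial-like values between −1.60 and −0.77.

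Genes of the nucleus that serve the same complexes were counted from lists of known subunits. In alpha-like against beta-like cells, 8 of 37 nuclear subunits of complex I fell and 2 rose, with a median of −0.24, where 14.1% of all genes were called lower and 10.1% higher. Ndufa4, listed here with complex I but also described as a complex IV subunit, had −0.98 ± 0.16 (edgeR adjusted p = 0.000417). Ndufs4 (0.65 ± 0.19) and Ndufa6 (0.41 ± 0.13), accessory subunits, rose. Of complex III 3 of 9 fell, among them Uqcr10 (−1.16 ± 0.14), of complex IV 3 of 10, among them Cox5a (−0.66 ± 0.13) and Cox7b (−0.65 ± 0.15), and of the ATP synthase 1 of 16, Atp5g1 (−0.63 ± 0.13). None of these 3 lists had a member that rose. The 1 of 16 is under the 14.1% of all genes called lower, and the 2 of 37 that rose are under the 10.1% called higher.

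In delta-like cells 1 of 37 complex I subunits fell and none of complex III, complex IV or the ATP synthase, where 6.37% of all genes were called lower. For lists of this length such counts are near that share, so they are not a result about the lists. The list medians were between −0.19 and 0.01, while all 10 mitochondrial messenger RNAs fell. In endothelial-like cells 12 of 37 complex I subunits fell and 1 rose, where 22.5% of all genes were called lower and 17.7% higher. In complexes III and IV and the ATP synthase 1 of 9, 3 of 10 and 4 of 16 fell. For lists of this length these last counts are near the 22.5%, so they are not a result about the lists. The 1 of 37 that rose is under the 17.7%. A test of the difference between nuclear and mitochondrial subunits was not run.

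Genes that make or handle mitochondrial RNA were read next. Of 11 tested genes of mitochondrial transcription and DNA maintenance none passed in alpha-like against beta-like cells, where 14.1% of all genes were called lower and 10.1% higher. The counts called in this list and the next 2 were under those shares, so they are not a result about the lists. Of 20 genes of RNA processing, stability and polyadenylation, Lrpprc, which stabilises mitochondrial messenger RNAs and supports their polyadenylation, rose, and Rexo2, a mitochondrial oligoribonuclease, fell. Lrpprc was at 95.6, 54.7, 122 and 178 CPM in beta-like and 319, 254, 358 and 393 CPM in alpha-like cells, with no overlap and a log2 difference of 1.5 ± 0.13 (edgeR adjusted p = 1.84e-06). Rexo2 had −0.58 ± 0.14 (adjusted p = 0.00881). Of 11 regulators of mitochondrial biogenesis, Myc alone passed (−1.91 ± 0.34, adjusted p = 0.000944), at 86.1, 16.3, 25.4 and 124 CPM in beta-like and 23.7, 12.1, 15.6 and 11.8 CPM in alpha-like cells.

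Genes induced by cell dissociation and stress were read in the same sums. In alpha-like against beta-like cells 6 of 18 rose and 3 fell, where 10.1% of all genes were called higher and 14.1% lower, among them Atf3 (2.01 ± 0.23) and Hspa1b (−1.23 ± 0.16). Hspa1b, a heat shock protein, was at 2.68, 23.4, 915 and 175 CPM in beta-like cells, so that it was high in the _3165 libraries and highest in WT1_3165. In alpha-like cells Hspa1b was at 2.74, 12.1, 377 and 72.0 CPM, so that it was low in both classes of the _2426 libraries and did not fall in WT1_2426. Its part in the mitochondrial share was not tested. In mutant against WT beta-like cells, none of the genes in any of these lists was called.

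Among the genes whose level was most like the summed 10, by Pearson's correlation of log2 CPM over 24 sums of library and class among 506 well-counted genes outside the mitochondrial rows, were Eif4e (0.902), Atp5f1 (0.892), Tomm20 (0.891) and Eif5a (0.891). Atp5f1 is a nuclear ATP synthase subunit and Tomm20 a receptor for protein import at the outer mitochondrial membrane, while Eif4e and Eif5a are translation factors. Eif4e was at 204, 116, 265 and 358 CPM in beta-like cells, which is the library order of the mitochondrial share. It was chosen by a correlation that includes these sums, so that order is not a separate result. In endothelial-like cells Eif4e was at 99.6, 156, 151 and 193 CPM, which is not the library order of their share. The sums share libraries and depth, and with each library's mean removed the correlations of these 4 fell to between 0.678 and 0.772.

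The last question was whether the share moves with the depth of a cell. When beta-like cells of each library were split at their median count, the shallower cells had 6.25%, 3.38%, 6.68% and 10.1% of their counts in the 10 and the deeper ones 4.94%, 2.99%, 6.55% and 10%. The share was higher in the shallower cells of all 4 libraries, with the widest gap in WT1_2426. Over libraries 1 of the 10, mt-Nd5, rose in shallow cells (0.29 ± 0.06, edgeR adjusted p = 0.0185), where 0.0449% of 13365 genes were called higher, and 9 of the 10 were higher at an unadjusted p under 0.05, as were 387 of the 13365 genes. The median of the 10 was 0.15, against −0.0043 over all genes.

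mt-Nd5 was not called when cells over 25% mitochondrial counts were left out (0.21, adjusted p = 0.180), over 10% (0.20, adjusted p = 0.372), or without WT1_2426 (0.25, adjusted p = 0.452), Sin3A mutant1_2426 (0.22, adjusted p = 0.0715) or WT1_3165 (0.33, adjusted p = 0.170), all by edgeR. Without Sin3A mutant1_2426, mt-Nd3 was the one called instead (0.23, adjusted p = 0.0297). In 4 groups of near-equal cell number ordered by depth, the beta-like share in WT1_2426 was 7.80%, 5.41%, 5.10% and 4.81% from the shallowest to the deepest cells. In Sin3A mutant1_3165 it was 10.5%, 9.93%, 10% and 10%. Depth therefore went with the share in WT1_2426 and hardly in Sin3A mutant1_3165, although these libraries differed in depth, with median counts of beta-like cells of 12949 and 6080.

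**Figure D5:**
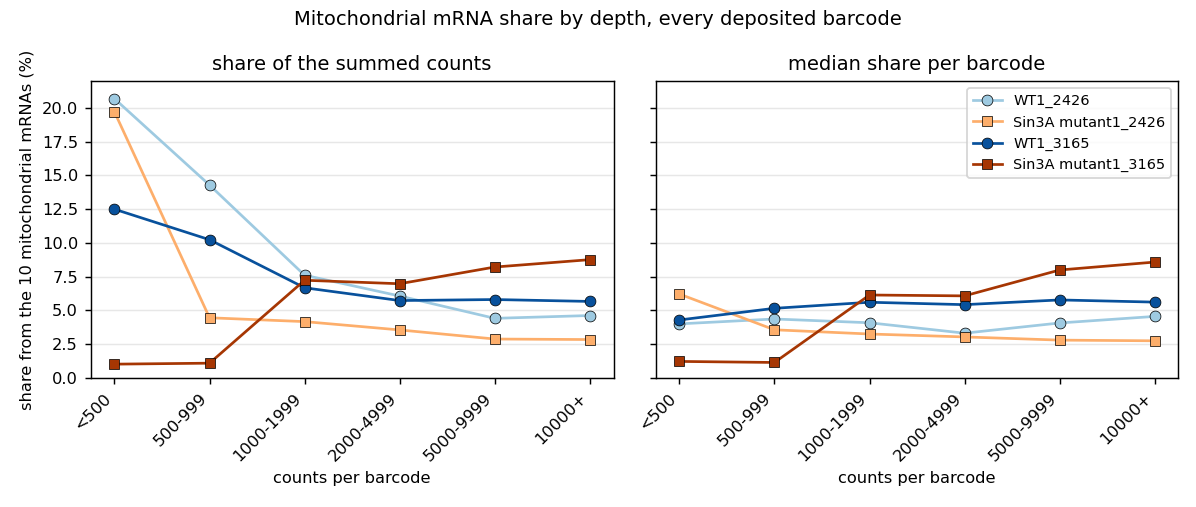
Share of counts from the 10 messenger RNAs (vertical axis, %) against counts per barcode in 6 ranges (horizontal axis), over every deposited barcode, with 1 line per library; the left panel sums the counts of a range and the right panel takes the median barcode. Under 500 counts the summed share is 20.7% in WT1_2426, 19.7% in Sin3A mutant1_2426, 12.5% in WT1_3165 and 1.01% in Sin3A mutant1_3165 (3 barcodes), while the medians there are at most 6.21%.

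Across all 6948 deposited barcodes, before any filter, a few shallow barcodes were almost wholly mitochondrial. Shares reached 87.2%, 85.9%, 88.7% and 66.5% in the 4 libraries, and 79 barcodes were above 50%, of which the filters on depth and genes kept 17. Under 500 counts the summed share was 20.7%, 19.7%, 12.5% and 1.01% in the order of the libraries, but the median barcode there had 4.0%, 6.21%, 4.29% and 1.21%. The high sums thus came from a minority, 11 of 46 barcodes over 25% in WT1_2426 and 48 of 158 in Sin3A mutant1_2426. Sin3A mutant1_3165 had only 3 barcodes under 500 counts.

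Barcodes with a share over 10% were deep in Sin3A mutant1_3165 and shallow in the other libraries. In Sin3A mutant1_3165, 464 barcodes, 19.0% of the library, were above 10%, with a median of 5755 counts and 2483 genes, and 455 of them were kept. In the other libraries 69, 79 and 82 barcodes were above 10%, with medians of 1956, 169 and 1490.5 counts. The barcodes over 10% held 35.7% of the mitochondrial messenger counts of Sin3A mutant1_3165 and between 4.22% and 7.49% of those of the other libraries. With cells of at most 10% mitochondrial counts, the difference in beta-like share between labels was −0.193 points in place of 0.604. That limit acts on the share itself and removed 359 of 725 beta-like cells of Sin3A mutant1_3165, against 7 to 25 in each other library, so it lowers the share of that library by construction.

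Of the 46 kept cells above 25%, 31 were beta-like, 1.40% of that class, with a median of 2044 counts against 7719.5 in the other beta-like cells. Their pool was made up much as in the other cells: mt-Cytb was 16.9% against 17.4%, mt-Nd4 13.7% against 13.8% and mt-Co2 14.6% against 15.7%. mt-Nd3 was 6.37% against 4.53%. Outside the mitochondrial rows, insulin took 7.29% of their counts against 15.4%. These are sums over cells of unequal numbers per library, given with no test.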

How the data were processed

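The data are raw counts per gene and barcode as deposited by the authors, whole numbers that were not normalized; the submitters' processing notes name the builds GRCh 38 and GRCm 38, and the aligner, the annotation, the collapsing of molecular barcodes and the strand counted are named in no source used here. The members and gene lists were chosen with earlier results of these data known. Barcodes with at least 500 counts and 250 genes were kept (336 were dropped), 58 doublets called by Scrublet (0.877%) were removed, and no mitochondrial limit was set. Cells were clustered (scanpy 1.11.5, 2000 variable genes, 30 components, Leiden resolution 1.0) without mitochondrial rows and named from markers, at least 3 of them detected; clusters failing this stayed unnamed, one of them 306 shallow cells with a median of 1060.5 counts whose best marker score was that of beta cells.

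Counts were summed per library and class, since the library is the replicate, and tested with edgeR 4.0.16 (quasi-likelihood F test, TMM factors, default low-count filter, Benjamini-Hochberg over all genes), with the library as a block between classes and between shallow and deep cells. DESeq2 1.42.0 was an alternative, as were other factors, no filter, limits of 25% and 10% on mitochondrial counts, each library left out, and the clustering with mitochondrial rows; shares of counts outside 6 hormone genes were an alternative chosen after seeing the data. Scripts were tested on simulated data. Shares were compared by exact permutation over libraries (scipy 1.17.1). Library totals ran from 9282495 to 12835199 counts. Wilson intervals (95%) cover counting error only. The labels do not say which animals a library came from, so a p-value speaks only of the spread over these libraries. The title numbers _2426 and _3165 are in both labels, but nothing says that they mark a shared batch or litter. Named outside the members are the mitochondrial ribosomal RNAs, Sin3a, up to 2 genes per list and direction with the smallest p in alpha-like against beta-like cells, and the 5 genes most correlated with the summed members; 2 genes under these rules are not reported here. Sequences are GENCODE transcripts of GRCm38.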

Additional observations from a re-analysis of the deposited data

Results flagged for a closer look

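The mitochondrial share went one way in the _2426 libraries and the other way in the _3165 libraries in several classes; with 1 library per label and number, the difference between the numbers was not tested. Mutant minus WT was −1.74 percentage points within _2426 and 2.10 within _3165 over all kept cells, −2.26 and 3.46 in beta-like, −2.04 and 2.59 in cycling beta-like, −2.26 and 1.05 in alpha-like, and −0.888 and 2.88 in delta-like cells. It was −0.210 and 0.473 in fibroblast-like, −0.804 and 0.551 in ductal-like, −0.739 and 0.354 in macrophage-like, and −0.110 and 0.349 in Schwann-like cells. Outside 6 hormone genes the opposite signs were absent in 3 of these 4, with ratios of mutant to WT of 1.01 and 1.10 in fibroblast-like, 0.992 and 0.998 in macrophage-like and 1.12 and 1.03 in Schwann-like cells. In pericyte-like cells the signs were the other way round, 0.124 and −0.558.

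Of the 10 messenger RNAs, 8 had opposite signs in the 2 numbers in beta-like cells. The log2 ratios of mutant to WT within _2426 and _3165 were −1.06 and 0.98 for mt-Nd1, −0.99 and 1.09 for mt-Nd2, −1.43 and 0.87 for mt-Nd3, and −0.89 and 0.71 for mt-Nd4. They were −0.48 and 0.75 for mt-Cytb, −0.81 and 0.45 for mt-Co2, −0.66 and 0.10 for mt-Co3, and −0.85 and 0.50 for mt-Atp6. These differences were not tested either, and Sin3a counts and the insulin share also differed in opposite directions in the 2 numbers.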

How the results depend on the processing

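The number of the 10 called lower in alpha-like cells was 9 with no filter on low counts in place of 5, 7 with DESeq2, and 2 to 5 with a library left out. With a library left out it was 6 to 10 in endothelial-like, 3 to 10 in fibroblast-like and 8 to 10 in delta-like cells. In shallow beta-like cells 2 were called with DESeq2 and with cells split by counts outside the mitochondrial rows, 0 with at most 25% or at most 10% mitochondrial counts, and 0 to 1 with a library left out. Mutant against WT gave 0 called in all alternatives. Between classes, the direction of each of the 10 was the same under all alternatives; of 110 values each, 8 lost and 6 gained their call in alpha-like, and 4, 9 and 14 lost it in delta-like, endothelial-like and fibroblast-like cells. The cause was not tested.

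The mutant minus WT share in beta-like cells was −0.193 points with at most 10% mitochondrial counts and −2.87 to 4.08 with a library left out. Over all kept cells it was −0.322 with that limit, −0.105 as a mean over cells, and −2.31 to 2.67 with a library left out. The 10% limit is set on the share itself. These share values carry no test, and in the fits a single library left in a label is assumed to vary like the others. The fitted log2 difference between labels in beta-like cells ranged, with a library left out, from −1.26 to 1.28 for mt-Nd1, −0.96 to 1.16 for mt-Nd2, −1.11 to 0.49 for mt-Nd3, −1.01 to 0.93 for mt-Nd4 and −0.18 to 0.78 for mt-Nd5. For the others it ranged from −0.84 to 1.18 (mt-Cytb), −0.78 to 0.27 (mt-Co1), −1.13 to 0.85 (mt-Co2), −0.84 to 0.38 (mt-Co3) and −0.71 to 0.42 (mt-Atp6). It was 0.0015 for mt-Atp6 with DESeq2's factors in edgeR, and −0.037 for mt-Co2 with at most 10% mitochondrial counts. mt-Atp6 in shallow against deep cells was −0.00040 with that limit.

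With the title number as a replicate block, 0 genes and 0 of the 10 were called in mutant against WT, and mt-Nd4 (−0.025) and mt-Co2 (−0.11) changed sign. Deviations of libraries of 1 number from their label means correlated by 0.061 in beta-like and 0.229 in all kept cells; with 2 pairs and no label that says so, the numbers were not taken to pair the libraries.

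Over all genes, the number called in shallow against deep cells was 12 as reported and 64 with no filter, 6 to 24 with a library left out, 6 with at most 10% mitochondrial counts and 8 with DESeq2; in delta-like cells it was 997 to 1487 with a library left out against 1849, and in fibroblast-like cells 2985 to 5444 against 5112. Mutant against WT called up to 6 genes with a library left out (all kept cells) and 1 with no filter or without WT1_2426 (beta-like).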
